A study of Homo sapiens with 6 samples.

Results

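The genes described here are the 53 members of a list of TGF-beta, activin and BMP signaling genes, and all 53 were found by symbol among the 46427 genes of the count table. They comprised 15 ligands, 4 latent TGF-beta binding proteins, 7 secreted antagonists, 10 signaling receptors, 3 co-receptors and decoys, 8 SMADs, 4 ID genes and 2 SMAD feedback targets. Of these, 48 passed edgeR's filter on low counts and were tested, among 17419 genes tested in all. BMP7, GDF5, GREM1, NOG and ID4 did not pass, with at most 0.576 CPM in any library, where CPM puts the counts of all libraries on the scale of the library total adjusted by TMM.

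RNA was sequenced from 3 samples of shCTRL cells and 3 samples of shCCN3 cells, both made from Hs578T, a triple-negative breast carcinoma line of the human mammary gland. shCTRL cells carried a control shRNA and shCCN3 cells carried CCN3 shRNA #2. Both came from a pSUPER retroviral vector under puromycin selection, were described as selected clones, and were grown in DMEM with 10% fetal bovine serum, and the labels name no added ligand. The comparison therefore rests on 1 cell line and 1 CCN3 shRNA, and whether the 3 samples of a group came from separate cultures is not given for the RNA-seq in the sources used here, where the methods speak of independent trials for the experiments in general, so the p-values measure the spread between these samples, which may be technical.

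TGF-beta family ligands are secreted dimers that bring together type II and type I receptor kinases on the cell surface. The TGF-beta and activin branch then phosphorylates SMAD2 and SMAD3, the BMP branch phosphorylates SMAD1, SMAD5 and SMAD9, and both groups join SMAD4 to act on genes in the nucleus. TGF-beta is stored in the matrix in latent complexes, activins and BMPs are held back by secreted antagonists, and in breast carcinoma the pathway is known both for restraining growth and for promoting invasion.

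Library totals lay between 56159110 and 68393177 counts, so that 3 counts in a library corresponded to between 0.0435 and 0.054 CPM, for counting error only. CCN3, the target of the shRNA, fell from 101 ± 2.43 to 47.0 ± 0.469 CPM (SD, n = 3 each), with no overlap of the groups (log2 fold change -1.10, edgeR adjusted p = 1.34e-06). Replicates of a group differed by more than counting noise, with chi-square values per degree of freedom from 7.04 to 45.5, the largest in the pairs that held shCCN3 replicate 2. The 6 mesenchymal markers of the line summed to between 14200 and 14400 CPM in shCTRL libraries and between 13500 and 13800 CPM in shCCN3 libraries, with VIM the most abundant. They did not move together. CDH2 was higher in shCCN3 cells (log2 fold change 0.87, edgeR adjusted p = 9.06e-05) and CD44 lower (-0.25, edgeR adjusted p = 0.00429). VIM, FN1, AXL and SPARC did not pass an edgeR adjusted p of 0.05. The 10 luminal epithelial markers summed to between 253 and 282 CPM and between 313 and 362 CPM, mostly from KRT18 and ERBB2, while ESR1, CDH1, EPCAM and KRT19 had group means of at most 0.132 CPM. Of the immune markers, CD3E and ITGAM had no count and CD68, which encodes an endosomal glycoprotein, made up nearly all of a sum that was 95.2 to 107 CPM in shCTRL libraries and 58.0 to 59.6 CPM in shCCN3 libraries. The 4 endothelial markers summed to at most 5.42 CPM, with no count of CDH5. The part of these marker differences in the results below was not tested.

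Of the 48 members tested, 30 passed an adjusted p of 0.05 in edgeR's quasi-likelihood test, which is 62.5% of them, beside 33.4% of all genes tested. Of the 48, 33 had at least 10 CPM in both groups, and the genes compared were not matched to them in level. The members were also chosen with earlier results of these data known. Higher levels in shCCN3 cells were called for 19 of the 48 members, beside 2814 of 17419 genes (16.2%). Lower levels were called for 11 of the 48, beside 3011 of 17419 genes (17.3%). A change of at least 2-fold as well was seen for 8 of the 48, beside 1411 of 17419 genes (8.1%). Of these 8 members, 7 were higher. The median log2 fold change of the 48 was 0.14 and that of all genes was 0.01, and the median size of the change without its sign was 0.51 for the members and 0.24 for all genes. The members tested ranged from -2.20 for BMPER to 3.01 for INHBE. In bulk RNA, a change in the number of expressing cells and a change in the RNA per cell cannot be told apart. An exact permutation test of a single gene over 3 libraries against 3 cannot go below p = 0.1 (two-sided).

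**Figure D1:**
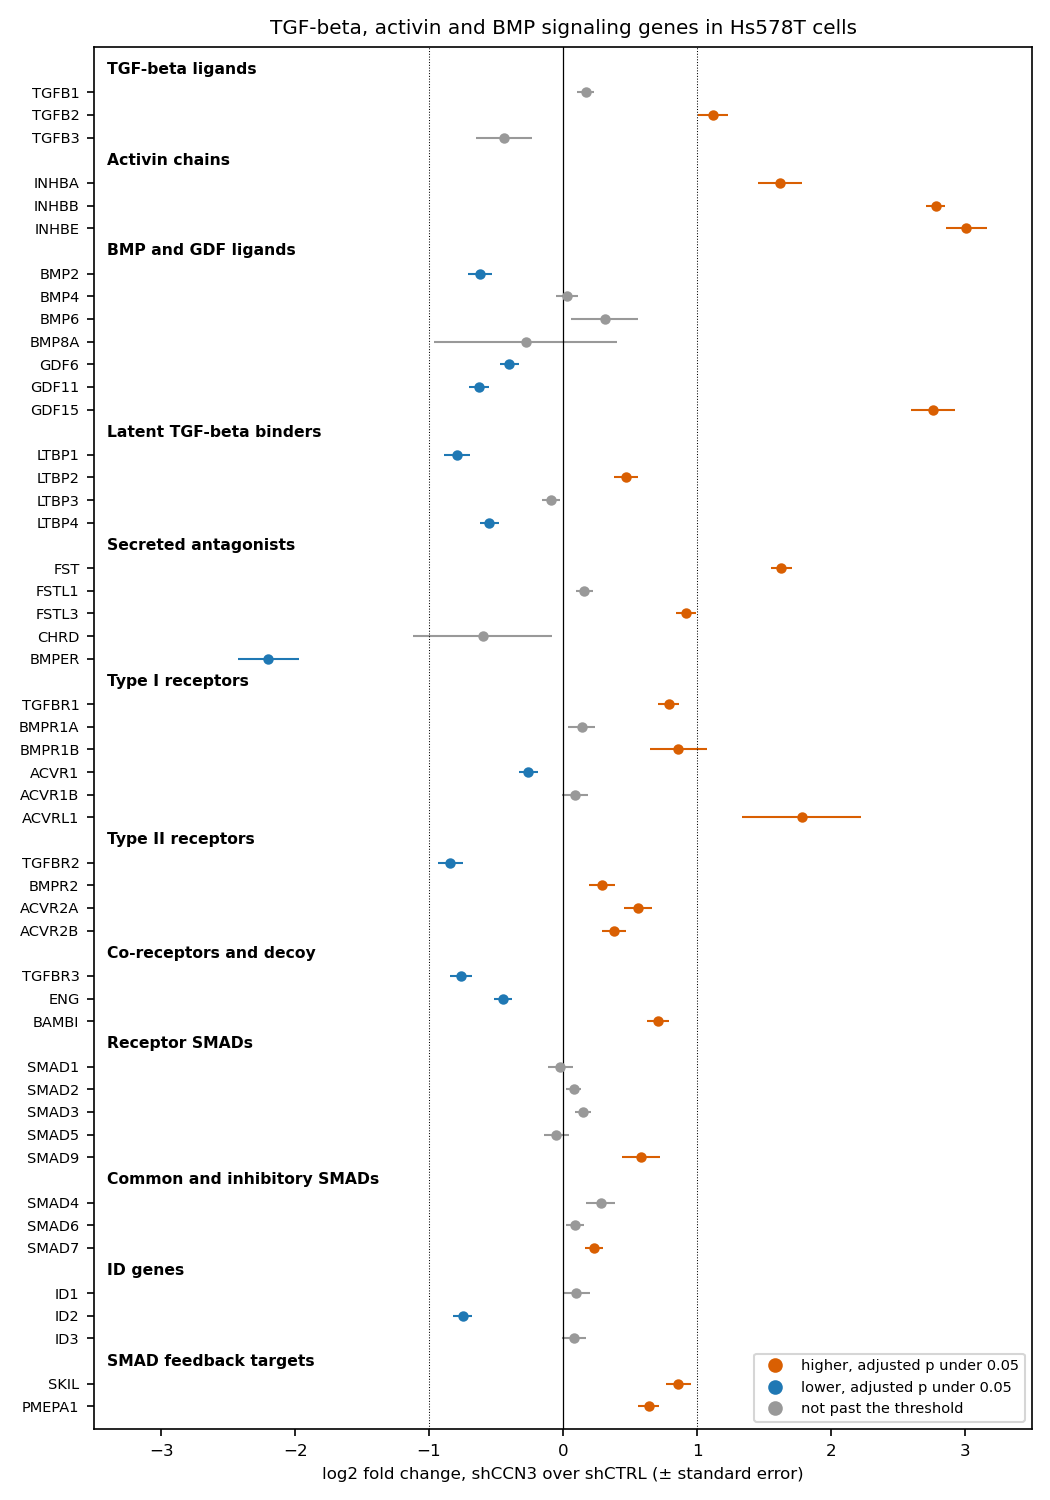
Log2 fold change between shCCN3 and shCTRL cells (horizontal axis) for the 48 members tested, grouped by role, with bars for the standard error, dotted lines at a 2-fold change, and colors for the 19 members called higher, the 11 called lower and the 18 not called. The activin chains lie far to the right, the secreted antagonist BMPER lies farthest to the left, and SMAD1, SMAD2, SMAD3 and SMAD5 lie close to 0.

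The plot of log2 fold changes by role shows where the calls fell. All 3 activin chains, all 4 type II receptors, all 3 co-receptors and decoys and both SMAD feedback targets were called, in one direction or the other. Of the receptor SMADs 1 of 5 was called, and of the common and inhibitory SMADs and the ID genes tested 1 of 3 each (33.3%), at or below the 33.4% of all genes. These are counts of small groups and were not tested against each other.

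The promoters of 4 members are shown because these genes moved in the same direction and because SKIL and BAMBI are textbook targets of SMAD proteins, beside the activin genes INHBB and INHBA. This choice leaves out other members that rose, such as FST, so the printed windows do not stand for all of them. Each sequence runs 5′ to 3′ on the strand of the gene, from 250 bases before to 50 bases after the start in the RefSeq promoter table on GRCh38.p14. For INHBA that start lies inside the outermost RefSeq limits of the gene given below, and the region at its outer end was not searched. Capitals mark matches to CAGAC or its reverse complement GTCTG, the 5-base SMAD binding element, and to GGCGCC, a GC-rich SMAD element that is its own reverse complement.
INHBB, chr2:120345886-120346185, plus strand: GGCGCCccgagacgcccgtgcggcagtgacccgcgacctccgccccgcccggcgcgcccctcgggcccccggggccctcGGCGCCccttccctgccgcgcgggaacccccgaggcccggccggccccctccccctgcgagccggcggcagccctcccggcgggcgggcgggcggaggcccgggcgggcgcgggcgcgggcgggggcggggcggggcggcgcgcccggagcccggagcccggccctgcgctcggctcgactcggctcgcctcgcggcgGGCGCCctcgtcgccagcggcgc
INHBA, chr7:41703041-41703340, minus strand: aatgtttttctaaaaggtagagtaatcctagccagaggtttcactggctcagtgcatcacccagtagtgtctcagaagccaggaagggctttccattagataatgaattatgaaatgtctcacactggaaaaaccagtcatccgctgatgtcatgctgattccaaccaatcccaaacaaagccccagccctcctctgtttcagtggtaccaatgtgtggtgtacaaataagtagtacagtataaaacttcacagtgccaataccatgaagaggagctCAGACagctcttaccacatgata
SKIL, chr3:170357465-170357764, plus strand: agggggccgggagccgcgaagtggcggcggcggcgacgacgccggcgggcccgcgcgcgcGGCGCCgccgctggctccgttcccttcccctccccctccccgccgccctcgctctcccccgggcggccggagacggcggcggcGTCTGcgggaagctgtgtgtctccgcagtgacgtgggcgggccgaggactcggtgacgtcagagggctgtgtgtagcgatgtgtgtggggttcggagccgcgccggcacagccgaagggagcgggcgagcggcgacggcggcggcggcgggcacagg
BAMBI, chr10:28677271-28677570, plus strand: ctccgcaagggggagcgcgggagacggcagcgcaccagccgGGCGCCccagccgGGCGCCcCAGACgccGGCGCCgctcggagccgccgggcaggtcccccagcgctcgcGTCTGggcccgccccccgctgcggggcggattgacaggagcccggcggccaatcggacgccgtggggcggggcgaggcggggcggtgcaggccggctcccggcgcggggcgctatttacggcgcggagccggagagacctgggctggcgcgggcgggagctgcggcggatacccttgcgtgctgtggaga

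The windows of the 2 activin genes differed in their letters. That of INHBB was 88.7% G and C and held 3 matches to GGCGCC and none to CAGAC, whereas that of INHBA was 43.3% G and C and held 1 match to CAGAC and none to GGCGCC. SKIL had 1 match to each, and BAMBI had 3 to GGCGCC and 2 to CAGAC, with a match to CAGAC 1 base after a match to GGCGCC. RefSeq windows were matched for 47 of the 53 members. CAGAC in either direction was in 22 of these, or 46.8%, beside 45.0% of 27305 promoter windows of the same length, and GGCGCC was in 18, or 38.3%, beside 19.0%. GGCGCC holds only G and C, and the windows compared were not matched for their share of G and C. Matches to these motifs can overlap each other at an end. The palindrome GTCTAGAC was in 1 member window, that of SMAD6, beside 0.201% of all windows. FST, whose level rose as well, had neither CAGAC nor GGCGCC in its window, which is not printed here. A match is a description of the letters and not a bound site, and members were not sorted by their response for these counts.

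Among the TGF-beta ligands, TGFB1 was the most abundant per length and TGFB2 was the one that changed. TGFB2 (chromosome 1, 218345336 to 218444619) encodes TGF-beta 2, the isoform that depends most on the co-receptor betaglycan for binding. It measured 37.2, 33.9 and 31.0 CPM in the shCTRL libraries and 78.8, 61.8 and 81.9 CPM in the shCCN3 libraries. The lowest shCCN3 library, replicate 2, still lay above all 3 shCTRL libraries. The log2 fold change was 1.12 (standard error, SE, 0.113, edgeR adjusted p = 7.52e-05), and it lay between 1.05 and 1.24 with each library left out in turn.

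TGFB1, on chromosome 19, encodes TGF-beta 1 and measured 265, 263 and 272 CPM in shCTRL libraries and 324, 292 and 283 CPM in shCCN3 libraries. The groups did not overlap, but the log2 fold change of 0.17 (SE 0.064) had an edgeR adjusted p of 0.0735. DESeq2 gave 0.0484 for the same gene. TGFB3 was low, at 1.44 ± 0.196 CPM under control shRNA and 1.06 ± 0.194 CPM under CCN3 shRNA (SD, n = 3 each), with an edgeR adjusted p of 0.143. On the scale of CPM per kilobase of merged exons, TGFB1 was 93.0% ± 0.701 of the 3 ligands' sum in shCTRL cells and 87.8% ± 1.70 in shCCN3 cells, and TGFB2 was 6.51% ± 0.631 and 11.9% ± 1.65 (SD, n = 3 each). The ratio of TGFB1 to TGFB2 on that scale was 13.0, 14.1 and 16.0 in shCTRL libraries and 7.49, 8.63 and 6.30 in shCCN3 libraries, so the groups did not overlap.

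All 3 activin chains were higher in shCCN3 cells, and they held 2 of the 3 largest changes among the members. Activins are dimers of inhibin beta chains and signal through SMAD2 and SMAD3 as TGF-beta does. INHBB (chromosome 2, 120346136 to 120351803), which encodes the beta B chain, measured 5.68, 5.49 and 5.80 CPM in shCTRL libraries and 38.5, 38.4 and 39.6 CPM in shCCN3 libraries. Replicates hardly differed, and the groups were far apart. The log2 fold change was 2.78 (SE 0.071, edgeR adjusted p = 4.22e-08), or 6.86-fold.

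INHBA, which encodes the beta A chain, measured 6.16, 5.06 and 4.26 CPM in shCTRL libraries and 17.7, 12.7 and 17.2 CPM in shCCN3 libraries. It lies on chromosome 7 (41685114 to 41705406), where the median log2 fold change of the genes tested was -0.43, and its 24 nearest tested genes had a median of -0.37. INHBA moved the other way, with a log2 fold change of 1.62 (SE 0.165, edgeR adjusted p = 8.31e-05), and stood at 2.05 relative to the chromosome median. INHBE (chromosome 12, 57455307 to 57458025) encodes the beta E chain, best known from liver. It was nearly silent in shCTRL libraries, at 0.568, 0.525 and 0.611 CPM or 33 to 41 counts, and reached 4.96, 4.46 and 4.39 CPM in shCCN3 libraries. Its log2 fold change of 3.01 (SE 0.153, edgeR adjusted p = 1.36e-06) was 8.08-fold.

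Per kilobase of merged exons, the 3 activin chains together went from 2.78 ± 0.137 to 16.4 ± 0.579 CPM per kilobase (SD, n = 3 each), with INHBB the largest part in both groups. That order rests on the length given to INHBA. The ratio of INHBB to INHBA was 2.31 ± 0.456 in shCTRL cells and 5.14 ± 0.959 in shCCN3 cells with merged exons, and 0.701 ± 0.138 and 1.56 ± 0.291 with the median transcript length (SD, n = 3 each). Under either length the ratio was higher in all 3 shCCN3 libraries than in any shCTRL library.

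**Figure D2:**
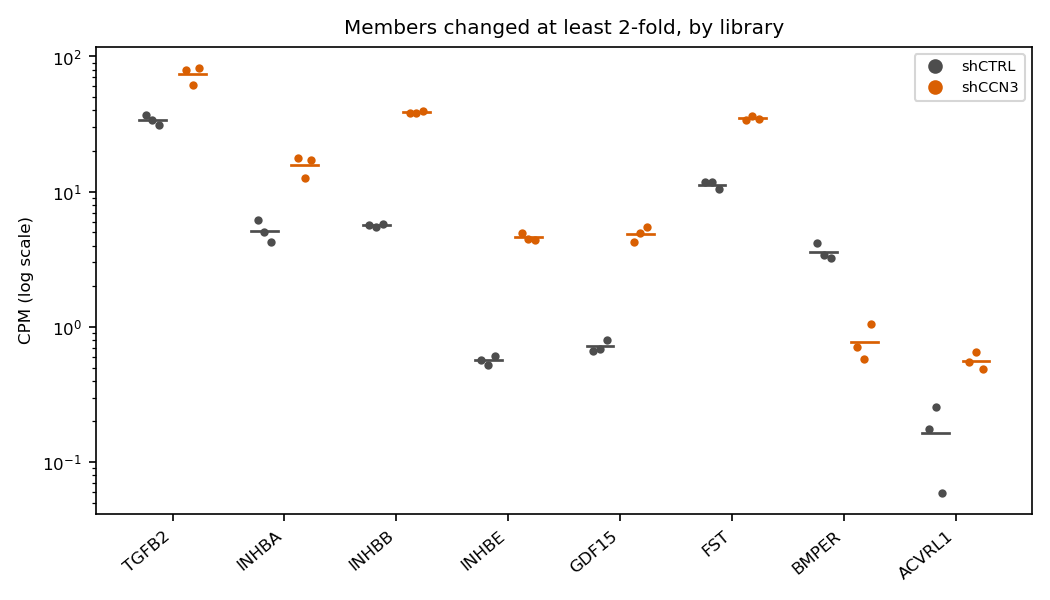
CPM (vertical axis, log scale) in each of the 3 shCTRL and 3 shCCN3 libraries for the 8 members that passed the test and changed at least 2-fold, with 1 point per library and a line at each group mean. In all 8 genes the groups are apart, BMPER is the one member that is lower in shCCN3 cells, and ACVRL1 lies lowest and has the widest scatter in shCTRL libraries.

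Of the 9 BMP and GDF ligands, 7 were tested. GDF15 rose, BMP2, GDF6 and GDF11 fell, and BMP4, BMP6 and BMP8A did not pass the test. GDF15 (chromosome 19, 18386158 to 18389176) is a distant family member that many stressed cells secrete and that acts through a receptor of its own in the brain. It measured 0.669, 0.684 and 0.805 CPM in shCTRL libraries and 4.24, 4.99 and 5.49 CPM in shCCN3 libraries. This was an increase of 2.76 on the log2 scale (SE 0.166, edgeR adjusted p = 3.59e-06), close in size to that of INHBB and INHBE.

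GDF6, a BMP-type ligand of skeletal and retinal development, was the most abundant per length of this group. It measured 91.2, 92.3 and 85.4 CPM in shCTRL libraries and 70.5, 62.8 and 70.9 CPM in shCCN3 libraries, a log2 fold change of -0.40 (SE 0.068, edgeR adjusted p = 0.0019). The groups did not overlap. GDF11, an activin-like ligand, went from 26.7 ± 1.78 to 17.2 ± 0.304 CPM (SD, n = 3 each; log2 fold change -0.63, edgeR adjusted p = 0.000207). SARNP, a protein-coding gene that overlaps GDF11, had 242% of its mean level, and since strand use in counting is not given in the sources used here, the value of GDF11 is uncertain.

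BMP2, the osteogenic ligand, went from 14.6 ± 0.677 to 9.51 ± 0.746 CPM (SD, n = 3 each), for a log2 fold change of -0.62 (SE 0.089, edgeR adjusted p = 0.000675). Its position stood out, since 23 of its 24 nearest tested genes on chromosome 20 were lower and their median was -0.52, nearly as low as BMP2 itself. Whether the change of BMP2 is one of its region was not tested. BMP4, at 19.9 ± 0.534 and 20.2 ± 1.62 CPM (SD, n = 3 each), had a log2 fold change of 0.03 (edgeR adjusted p = 0.837). BMP6 and BMP8A were below 1 CPM in every library, BMP6 overlaps the far more abundant TXNDC5, and BMP8A has a near-identical copy in BMP8B, so both values are uncertain.

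Opposite directions were seen among the latent TGF-beta binding proteins, which tether latent TGF-beta to fibrillin and fibronectin in the matrix. LTBP1 (chromosome 2, 32946953 to 33399509), the most abundant of them in CPM and per kilobase of merged exons, measured 457, 452 and 405 CPM in shCTRL libraries and 272, 213 and 272 CPM in shCCN3 libraries. The highest shCCN3 library lay below the lowest shCTRL library. Its log2 fold change was -0.79 (SE 0.099, edgeR adjusted p = 0.000283). LTBP4, which binds latent TGF-beta 1 weakly, went from 69.6 ± 5.76 to 47.7 ± 1.65 CPM (log2 fold change -0.55, edgeR adjusted p = 0.000447). LTBP2, the member of the family that does not bind latent TGF-beta, went up instead, from 104 ± 5.06 to 145 ± 17.1 CPM (SD, n = 3 each), for a log2 fold change of 0.47 (SE 0.089, edgeR adjusted p = 0.00298).

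LTBP3 overlapped between groups at 184 ± 14.9 and 173 ± 3.73 CPM (SD, n = 3 each), with a log2 fold change of -0.09 (edgeR adjusted p = 0.331). The ratio of LTBP1 to LTBP2 per kilobase was 5.43, 5.46 and 5.28 in shCTRL libraries and 2.24, 2.19 and 2.28 in shCCN3 libraries. Replicates were nearly alike and the groups were well apart. The sum of all 4 LTBP genes, including LTBP2, which does not bind latent TGF-beta, was set against the sum of the 3 TGF-beta ligands. Per kilobase of merged exons the ratio was 1.16 ± 0.0358 in shCTRL cells and 0.743 ± 0.0459 in shCCN3 cells (SD, n = 3 each). With the median transcript length it was 1.64 ± 0.0448 and 1.07 ± 0.0595 (SD, n = 3 each). A ratio without LTBP2 was not computed.

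**Figure D3:**
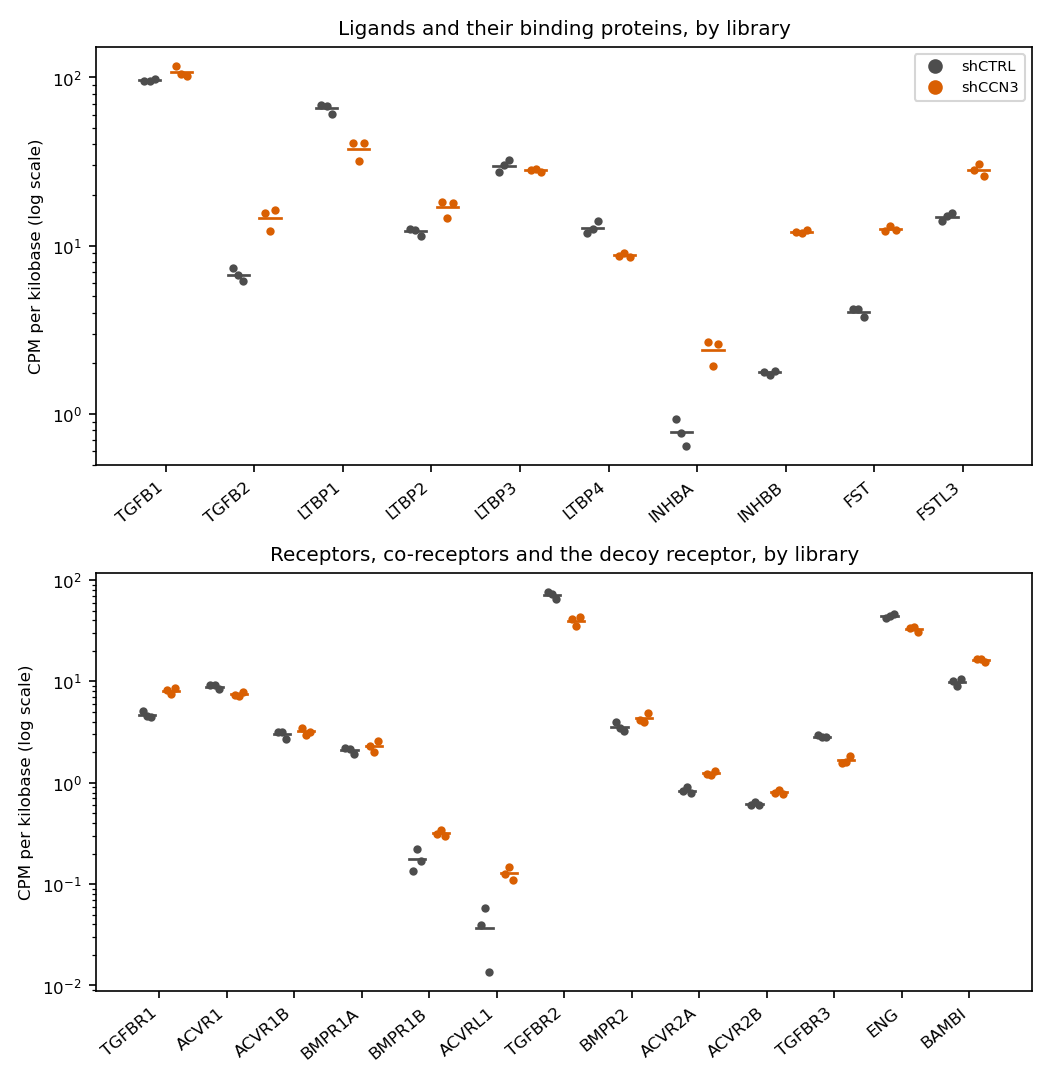
Levels in CPM per kilobase of merged exons (vertical axes, log scale) in each shCTRL and shCCN3 library, with a line at each group mean, for ligands and their binding proteins (upper panel) and for receptors, co-receptors and the decoy BAMBI (lower panel). LTBP1 and TGFBR2 are lower and INHBB, FST and TGFBR1 higher in all 3 shCCN3 libraries, and TGFBR2 stays above the other receptors in both groups.

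Among the secreted antagonists, both activin-binding proteins rose and the BMP-binding protein BMPER fell. FST (chromosome 5, 53480629 to 53487134) encodes follistatin, which wraps around activin dimers and blocks both receptor sites. It measured 11.7, 11.7 and 10.5 CPM in shCTRL libraries and 34.1, 36.3 and 34.7 CPM in shCCN3 libraries. The groups lay far apart with little scatter, and the log2 fold change was 1.63 (SE 0.076, edgeR adjusted p = 8.26e-07). FSTL3, a follistatin relative that also binds activins and myostatin, measured 38.3, 40.8 and 42.3 CPM and then 76.5, 83.1 and 70.9 CPM, a log2 fold change of 0.92 (SE 0.076, edgeR adjusted p = 2.18e-05).

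Taken as sums, these antagonists rose less than the activin chains, although FST alone, at 1.63 on the log2 scale, rose about as much as INHBA at 1.62. The sum of FST and FSTL3 over the sum of INHBA and INHBB, per kilobase of merged exons, was 6.77, 7.75 and 7.89 in shCTRL libraries and 2.75, 3.14 and 2.58 in shCCN3 libraries. With the median transcript length the ratio was 7.55 ± 1.05 and 3.37 ± 0.490 (SD, n = 3 each), and the groups did not overlap in either case. These are ratios of mRNA and say nothing of secreted protein.

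BMPER (chromosome 7, 33904915 to 34156427), an extracellular protein that binds BMPs and can dampen or help their signal, measured 4.15, 3.41 and 3.23 CPM in shCTRL libraries and 0.711, 0.576 and 1.05 CPM in shCCN3 libraries. It had the largest decrease of the members, with a log2 fold change of -2.20 (SE 0.228, edgeR adjusted p = 9.2e-05). Its chromosome had a median of -0.43 and its 24 nearest tested genes a median of -0.30, and relative to the chromosome median BMPER stood at -1.77. FSTL1, a glycoprotein of the follistatin family, was the most abundant antagonist per length, at 493, 473 and 452 CPM in shCTRL libraries and 527, 497 and 556 CPM in shCCN3 libraries. The groups were narrowly apart and the log2 fold change of 0.16 had an edgeR adjusted p of 0.0901. The BMP antagonists CHRD, NOG and GREM1 were close to the floor, with NOG at 0.576 CPM or 32 counts in shCCN3 replicate 2 and at most 6 counts in each other library.

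Type I receptors are the kinases that phosphorylate SMADs. TGFBR1, also called ALK5 and used by TGF-beta, measured 33.8, 29.9 and 29.7 CPM in shCTRL libraries and 53.8, 50.2 and 56.9 CPM in shCCN3 libraries. It was higher in every shCCN3 library, with a log2 fold change of 0.79 (SE 0.078, edgeR adjusted p = 7.35e-05). ACVR1, a BMP type I receptor also called ALK2, measured 32.2, 32.5 and 29.4 CPM and then 26.1, 25.1 and 27.6 CPM. Per kilobase of merged exons it was the most abundant type I receptor in shCTRL cells, at 8.88 against 4.70 for TGFBR1, whereas TGFBR1 was above it in shCCN3 cells, at 8.11 against 7.44. That order rests on the length used. Over all 6 libraries, the means of ACVR1, TGFBR1 and ACVR1B were 8.16, 6.41 and 3.11 by merged exons. By the median transcript they were 10.0, 7.27 and 9.65. The log2 fold change of ACVR1, -0.26 (SE 0.072, edgeR adjusted p = 0.0235), was about that of its 24 nearest tested genes, whose median was -0.25, and it passed the threshold in 3 of the 6 fits that left out a library, with adjusted p up to 0.115.

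ACVRL1, also called ALK1 and known as the endothelial type I receptor for BMP9 and BMP10, was scarce. It had 12, 16 and 4 counts in shCTRL libraries, or 0.175, 0.255 and 0.0596 CPM, and 38, 36 and 31 counts in shCCN3 libraries, or 0.551, 0.648 and 0.485 CPM. The groups did not overlap, and the log2 fold change was 1.78 with a wide SE of 0.446 (edgeR adjusted p = 0.0134). Of the 4 endothelial markers, CDH5 had no count in any library. Mean CPM in shCTRL and shCCN3 cells was 3.57 and 3.43 for PECAM1, 0.926 and 0.532 for KDR, and 0.0863 and 0.0208 for VWF. BMPR1B, a BMP receptor of cartilage and ovary, went from 1.04 ± 0.263 to 1.89 ± 0.119 CPM (SD, n = 3 each; log2 fold change 0.86, edgeR adjusted p = 0.0123). BMPR1A and ACVR1B, the main BMP and activin type I receptors, overlapped between groups, with log2 fold changes of 0.14 and 0.09.

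Type II receptors bind ligand and activate the type I kinases. TGFBR2 (chromosome 3, 30606356 to 30694142), the TGF-beta type II receptor, measured 357, 346 and 304 CPM in shCTRL libraries and 196, 165 and 201 CPM in shCCN3 libraries. No shCCN3 library came near the shCTRL range. The log2 fold change was -0.84 (SE 0.090, edgeR adjusted p = 0.000116), and the 24 nearest tested genes had a median of 0.01. The other 3 type II receptors went up, by 0.29 for BMPR2, 0.56 for ACVR2A and 0.38 for ACVR2B on the log2 scale, with edgeR adjusted p-values of 0.0496, 0.00249 and 0.00823. BMPR2, the main BMP type II receptor, passed in 2 of the 6 fits that left out a library, with adjusted p up to 0.169. ACVR2A overlaps ORC4, which had 360% of its level, and ACVR2B overlaps an antisense RNA at 14.8% of its level, so that the values of both activin receptors are uncertain.

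The partner receptors of TGF-beta thus went in opposite directions. Per kilobase of merged exons, the ratio of TGFBR2 to TGFBR1 was 14.8, 16.3 and 14.4 in shCTRL libraries and 5.13, 4.63 and 4.96 in shCCN3 libraries. With the median transcript length it was 13.6 ± 0.875 and 4.41 ± 0.228 (SD, n = 3 each). TGFBR2 remained the more abundant transcript of the pair in all 6 libraries.

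Both co-receptors fell and the decoy receptor rose. TGFBR3, which encodes betaglycan, the co-receptor that presents TGF-beta 2, measured 20.6, 19.7 and 19.8 CPM in shCTRL libraries and 11.1, 11.4 and 13.0 CPM in shCCN3 libraries (log2 fold change -0.76, edgeR adjusted p = 0.000137). ENG, which encodes endoglin and was the most abundant of the 3, measured 145, 152 and 158 CPM and then 115, 117 and 104 CPM, a log2 fold change of -0.45 (SE 0.067, edgeR adjusted p = 0.000859). The 24 tested genes nearest to ENG had a median of -0.25. BAMBI, a receptor without a kinase domain that damps TGF-beta and BMP signals, measured 19.0, 16.9 and 19.9 CPM and then 30.9, 31.3 and 29.0 CPM, a log2 fold change of 0.71 (SE 0.081, edgeR adjusted p = 0.000164). For each of these 3 genes the libraries of the groups did not overlap.

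Most SMAD transcripts moved little. SMAD3, the most abundant receptor SMAD per length, measured 190, 194 and 183 CPM in shCTRL libraries and 216, 199 and 213 CPM in shCCN3 libraries, and its log2 fold change of 0.15 (SE 0.058) had an edgeR adjusted p of 0.0826. SMAD1, SMAD2 and SMAD5 had log2 fold changes of -0.02, 0.08 and -0.05. The merged exons of SMAD2 were 35303 bases against a median transcript of 10445 bases, so its level per length is uncertain. SMAD9, the least abundant BMP SMAD, went from 3.81 ± 0.571 to 5.67 ± 0.585 CPM (SD, n = 3 each; log2 fold change 0.58, edgeR adjusted p = 0.0127), and without shCCN3 replicate 3 its adjusted p was 0.0542.

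SMAD4, the common partner, had a log2 fold change of 0.28 (edgeR adjusted p = 0.0855), with overlapping groups. The inhibitory SMAD6, which checks mainly BMP receptors, measured 32.3, 32.0 and 31.3 CPM in shCTRL libraries and 36.3, 31.9 and 33.4 CPM in shCCN3 libraries, and also overlapped (edgeR adjusted p = 0.369). SMAD7, which recruits ubiquitin ligases to the TGF-beta receptor, was 24.2 ± 0.835 and 28.3 ± 1.17 CPM (SD, n = 3 each), for a log2 fold change of 0.23 (edgeR adjusted p = 0.0288) that passed in 2 of the 6 fits that left out a library, with adjusted p up to 0.115. Which of SMAD6 and SMAD7 was more abundant per length depended on the length used, with 8.57 and 5.78 CPM per kilobase by merged exons and 8.57 and 20.5 by the median transcript.

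ID genes encode helix-loop-helix proteins without a DNA-binding region and are direct targets of BMP signals. ID3, the most abundant of the members per length, measured 167, 180 and 163 CPM in shCTRL libraries and 194, 191 and 156 CPM in shCCN3 libraries, with overlapping groups and an edgeR adjusted p of 0.51. ID1 overlapped as well, at 86.6 ± 4.10 and 93.0 ± 13.8 CPM (SD, n = 3 each). ID2 alone of the 3 tested fell, from 60.6, 57.9 and 54.0 CPM to 34.6, 35.6 and 32.2 CPM (log2 fold change -0.75, SE 0.070, edgeR adjusted p = 5.06e-05). ID4 had no count in any library.

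Both SMAD feedback targets rose. SKIL, which encodes the SMAD corepressor SnoN, measured 18.7, 17.6 and 18.2 CPM in shCTRL libraries and 30.2, 31.2 and 37.5 CPM in shCCN3 libraries (log2 fold change 0.86, SE 0.092, edgeR adjusted p = 0.000113). PMEPA1, a membrane protein that sequesters SMAD2 and SMAD3, measured 30.8, 34.4 and 31.8 CPM and then 54.6, 49.5 and 47.1 CPM (log2 fold change 0.64, SE 0.077, edgeR adjusted p = 0.000235). No library of one group reached into the range of the other for either gene. NKILA, a noncoding RNA that overlaps PMEPA1, had 9.33% of its level.

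Other genes of the pathway that are not members were counted from lists of their roles. Of 18 other ligands, 5 were tested and 0 passed in edgeR, DESeq2 or limma-voom, with 1 at an unadjusted p under 0.05 in edgeR. Without shCTRL replicate 1, 1 ligand passed as higher, and without shCCN3 replicate 3 a different ligand passed as lower. Of 26 other extracellular regulators, 15 were tested, 4 rose and 6 fell (66.7% called, beside 33.4% of all genes), with a median log2 fold change of 0.01. LRRC32, which encodes GARP, a cell-surface anchor of latent TGF-beta, fell by 1.84 on the log2 scale, and its relative NRROS, named here after its value was seen, fell by 1.01. ITGB8, the beta chain of an integrin that activates latent TGF-beta, fell by 1.64 (SE 0.178), while ITGAV, its alpha chain, rose by 0.80. The protease HTRA1 fell by 1.83, the BMP antagonist CHRDL1 rose by 1.00, and THBS1, a thrombospondin that can activate latent TGF-beta, rose by 0.79. The edgeR adjusted p-values of these 7 genes were at most 0.00127. ITGB8 lies on chromosome 7, and its 24 nearest tested genes had a median of -0.23.

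At the level of receptors, 2 of 10 other genes tested rose and 2 fell, TMEFF2 (0.71) and RGMB (0.24) against ACVR1C (-1.13) and FKBP1A (-0.50), in log2 fold change. That is 4 of 10 called, near the 33.4% called over all genes. FKBP1A, which holds type I receptors inactive, had neighbors on chromosome 20 with a median of -0.52. Of 24 intracellular regulators tested, 7 rose and 2 fell, or 37.5%, which is also near that share. The largest increases were those of PDLIM5 (0.74), TGIF2 (0.71) and SMURF2 (0.67), of which TGIF2 is a SMAD corepressor and SMURF2 a ubiquitin ligase of SMADs and receptors. The decreases were those of HIPK2 (-0.75), on chromosome 7, and SKI (-0.39), a SMAD corepressor related to SKIL whose 24 nearest tested genes on chromosome 1 had a median of -0.46.

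Among genes known as targets of TGF-beta and SMAD3, 27 of 28 were tested, 15 rose and 6 fell (77.8% called, beside 33.4% of all genes), and the median log2 fold change was 0.31. TAGLN and CCN2 rose the most. TAGLN, a smooth muscle actin-binding protein, went from 2.46 ± 1.14 to 37.7 ± 4.88 CPM (SD, n = 3 each; log2 fold change 3.94, SE 0.256). CCN2, a matricellular protein of the same family as CCN3, went from 50.8 ± 2.59 to 465 ± 23.6 CPM (SD, n = 3 each; log2 fold change 3.19, SE 0.070), while its 24 nearest tested genes on chromosome 6 had a median of 0.37. ACTA2, smooth muscle actin, came next among those with a mean of at least 1 CPM, with a log2 fold change of 2.24.

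The decreases among these targets were smaller. ANGPTL4, which encodes a secreted inhibitor of lipoprotein lipase, fell by 1.32 on the log2 scale and LMCD1 by 0.56, with edgeR adjusted p-values of 0.000786 and 0.0103. Many of these targets also respond to other signals, so that the list is not a readout of TGF-beta alone. It shares THBS1, TGIF1 and SKI with the lists above.

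Targets of BMP and SMAD1/5 were evenly divided. Of 19 genes, 17 were tested, 6 rose and 6 fell (70.6% called, beside 33.4% of all genes), with a median log2 fold change of -0.18. HEY2 and HEY1, repressors that Notch also drives, rose by 2.47 and 1.06 on the log2 scale, and the netrin receptor UNC5B rose by 1.66. On chromosome 6, the 24 tested genes nearest to HEY2 had a median of 0.35. ZNF423, TBX2 and DLX5, all transcription factors of development, fell by 1.02, 0.79 and 0.60, and the 24 tested genes nearest to DLX5 on chromosome 7 had a median of -0.41. The list contains SMAD6 and NOG, which are members.

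**Figure D4:**
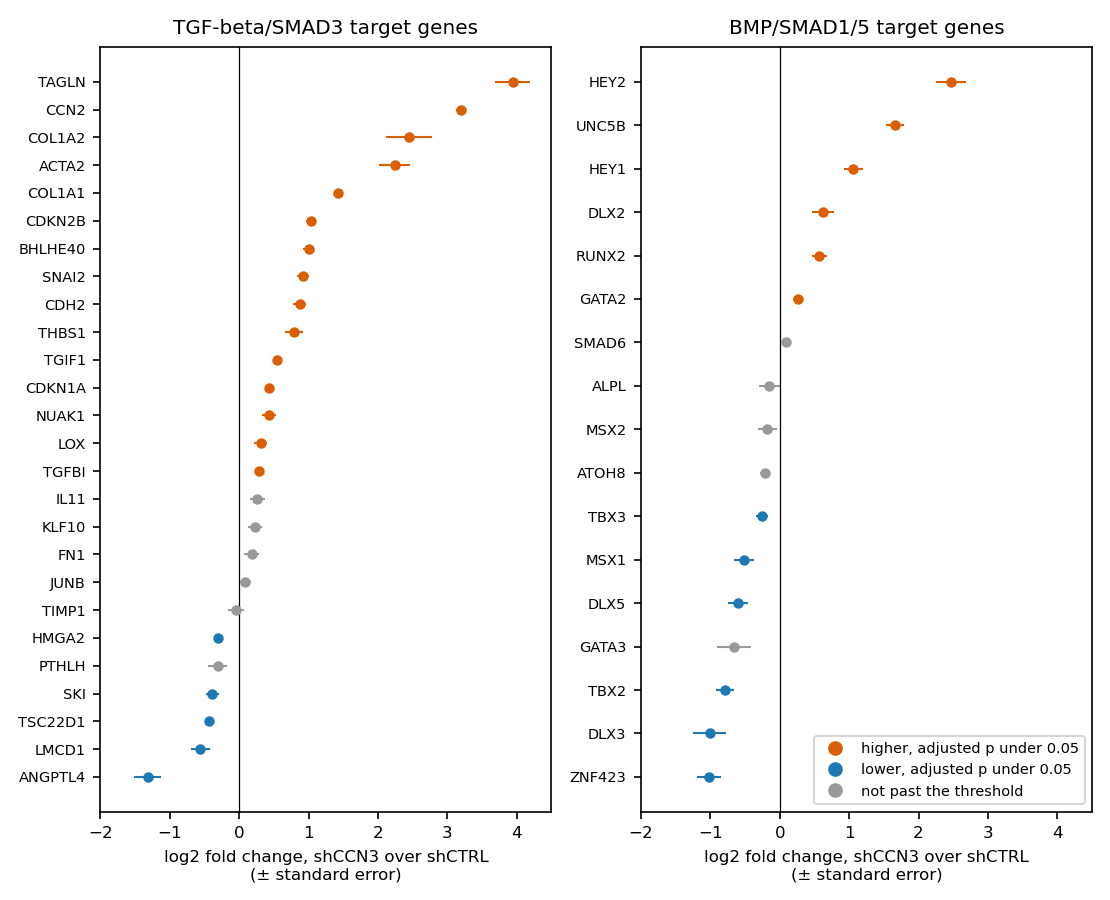
Log2 fold change between shCCN3 and shCTRL cells (horizontal axes, bars for the standard error) for 26 of the 27 TGF-beta/SMAD3 target genes tested and for the 17 BMP/SMAD1/5 target genes tested, sorted by value and colored by the edgeR call. The TGF-beta targets reach from ANGPTL4 at -1.32 to TAGLN at 3.94 with 15 called higher, and the BMP targets divide into 6 called higher and 6 called lower.

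The plot of the target genes shows both lists on one scale. Replicate scatter was wider in the scarcest members. For the 33 members with at least 10 CPM in both groups, the coefficient of variation between replicates had a median of 5.50% in shCTRL cells and 7.61% in shCCN3 cells, and highest values of 13.2% and 14.8%. For the 7 members tested that were under 1 CPM in a group, the medians were 18.2% and 14.6% and the highest values 60.2% and 99.4%, the last in BMP8A.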

How the data were processed

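RNA from 3 shCTRL and 3 shCCN3 samples of Hs578T cells was sequenced from stranded poly(A) libraries. The authors deposited raw read counts for 46427 genes by NCBI Gene ID and symbol, with no normalization. The submitters' processing notes name bcl2fastq 2.20.0, Trimmomatic, HISAT2 2.1.0, StringTie, DESeq2 and GRCh38. The annotation, the counting settings and the use of strand in counting are not given in the sources used here, so values of overlapping genes and near-identical copies are uncertain. Library totals lay between 56159110 and 68393177 counts.

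Libraries were assigned to groups by the sample labels. TMM factors, the filter on low counts, the quasi-likelihood test and Benjamini-Hochberg adjustment over all 17419 genes tested were run with edgeR 4.0.16 in R 4.3.3, on all 6 libraries without a block. Standard errors were derived from the log2 fold change and its F statistic. CPM per kilobase used merged exons of GENCODE release 29 transcripts on GRCh38, with the median transcript length as an alternative added after the data were seen, as were the medians of the 24 nearest tested genes and the motif GTCTAGAC. Gene positions and promoter windows came from RefSeq on GRCh38.p14. Each script with a test across genes was first tested on simulated counts.

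The members and lists were chosen with earlier results of these data known. Members past an adjusted p of 0.05 and a 2-fold change and the most abundant member of each role per length were given in full, and of the other lists the 3 largest called changes in each direction with a mean of at least 1 CPM. Alternatives were DESeq2's size factors, upper-quartile normalization, no filter, a minimum of 10 counts in each library, DESeq2 1.42.0, limma-voom with limma 3.58.1, a replicate block, centring on chromosome medians and each library left out in turn. The values of some genes of these lists are not reported here.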

Additional observations from a re-analysis of the deposited data

How the results depend on the processing

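Of the 30 members called, 26 passed in all 6 fits that left out a library, 27 passed in each of the 7 other fits with all libraries that tested them (ACVRL1 was not tested with at least 10 counts in every sample), and 0 changed direction in any of these fits. ACVR1, BMPR2, SMAD7 and SMAD9 were lost in some fits: BMPR2 had an adjusted p of 0.0691 without a filter on low counts and 0.0529 in limma-voom, and without shCCN3 replicate 3 SMAD9 had 0.0542. With each library left out, the members called numbered 27 to 34, other ligands called 0 to 1, and other intracellular regulators called 8 to 15, the highest count being that without shCCN3 replicate 2, where 7229 genes were called in all against 5825 with all libraries. TGFB1, FSTL1, SMAD3 and SMAD4, which were not called with all libraries, passed without that library, at log2 fold changes of 0.19, 0.20, 0.18 and 0.35. Uncalled members whose sign turned when a library was left out were BMP4 (-0.04 to 0.07), BMP8A (-1.42 to 0.19), SMAD1 (-0.07 to 0.05), SMAD5 (-0.15 to 0.03) and ID1 (-0.01 to 0.20), and the cause was not tested. Same-numbered samples correlated at 0.149, -0.0726 and -0.259 in their deviations from the group means, and none correlated best with its own number. Deviations from a mean of 3 samples are not independent, so these values cannot show whether same-numbered samples were handled together. The sources used here do not give it. With a replicate block, 27 members and 4887 genes were called, and ACVR1, BMPR2 and SMAD7 had adjusted p-values of 0.0737, 0.0768 and 0.0855. The scalings moved the median of all genes by less than 0.1 on the log2 scale. Relative to the median of its chromosome, INHBA stood at 2.05, BMPER at -1.77, BMP2 at -0.50, GDF6 at -0.51, TGFBR3 at -0.63, PMEPA1 at 0.76, ID3 at 0.21 and BMP6 at -0.03, and the median of the members tested was 0.13. By raw counts in place of counts per kilobase, TGFB1 was 88.3% and 79.9% of the TGF-beta ligands in shCTRL and shCCN3 cells. Depth limits INHBE, GDF15 and ACVRL1 in shCTRL cells, and the design limits all results to 1 line and 1 shRNA.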
